A study of Mus musculus with 31 samples.

Results

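Regulatory T cells (Tregs) sorted from the lungs of mice with a mammary tumor were compared with Tregs sorted from the blood of mice with a mammary tumor, on the same 3 dates. The comparison rests on 6 of the 31 libraries of the series, 3 from KEP lung and 3 from KEP blood, chosen by their tissue and genotype labels and paired by the date that each title carries. KEP mice (K14cre;Cdh1F/F;Trp53F/F, FVB/N background) carry a Cre recombinase under the keratin 14 promoter, which is active in epithelium and not in T cells, and floxed alleles of E-cadherin and p53, and these mice bore spontaneous mammary tumors of 225 mm2. Each KEP library came from 1 mouse, with 70000, 30000 and 49000 sorted cells from lung and 70000, 17000 and 70000 from blood. The sort gate in both tissues was live CD45+ CD3+ CD4+ CD8- CD25+, so the cells were chosen by surface CD25 and not by the Treg factor Foxp3. Lung and blood of non-tumor-bearing WT littermates (labelled wt;Cdh1F/F;Trp53F/F, so with the same floxed alleles, without Cre, on the same background) were set beside the KEP values, each WT library being a pool of 3 mice. Age is not given in the sources used here. Lungs were digested with Liberase at 37 °C for 30 minutes, no digestion is stated for blood, and red cells were lysed in both, so tissue and digestion cannot be told apart in any result below.

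Tregs are CD4 T cells that restrain other immune cells through the transcription factor Foxp3, the inhibitory receptor CTLA-4, the cytokines IL-10 and TGF-beta and the capture of IL-2 by CD25. Circulating T cells leave tissue along a gradient of sphingosine 1-phosphate, read by the receptor S1PR1, which the factor KLF2 keeps expressed. The activation antigen CD69 binds S1PR1 and removes it from the surface, which holds T cells in tissue. Antigen receptor stimulation switches on NR4A and EGR factors and the NF-kappaB pathway within a short time, and the AP-1 factors of the FOS and JUN families also answer to many kinds of stress.

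The level of each gene is given below as CPM (read counts divided by the library total and scaled with TMM factors), in the libraries of date 1, 2 and 3, and a gene is called higher or lower when edgeR's quasi-likelihood test gives a Benjamini-Hochberg adjusted p under 0.05 over the 12825 genes tested. Library totals ran between 11596876 and 13241413 counts in KEP lung and between 9476533 and 11609950 counts in KEP blood. Replicates of a tissue differed by more than counting noise, with chi-square values of 9.64 to 16.3 per degree of freedom between pairs of libraries of a group.

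Foxp3 (ENSMUSG00000039521, chrX:7579676-7595243, GRCm38) was at 1367, 1493 and 1445 CPM in KEP lung, against 1748, 1583 and 1727 CPM in KEP blood. Its reads overlap those of Ccdc22 and other annotated neighbours, and the strand setting of the counting is not given, so the value is uncertain by that share. Cd4 was at 1045, 1106 and 1098 CPM in lung and 1117, 1178 and 1108 CPM in blood, and Cd8a at no more than 0.27 CPM in any of the 6 libraries. Summed over 10 pan-T genes, without TMM scaling, the level was 5127 to 5488 CPM in lung and 5278 to 6252 CPM in blood, so both tissues showed the markers of the labelled CD4 T cell. Of the floxed genes, Trp53 was at 189, 219 and 184 CPM in lung and 113, 133 and 121 CPM in blood (log2 fold change 0.68, SE 0.07, adjusted p = 2.55e-08), with a similar value in WT mice (0.56). Cdh1 was at 3.39, 5.11 and 8.07 CPM in lung and 1.15, 0.992 and 1.54 CPM in blood, and its call was lost when the tumor and mammary gland libraries entered the fit. These genes are deleted in keratin 14 expressing cells, so their levels in T cells are no check of the genotype.

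Markers of several other cell types moved with tissue. Over all genes tested, 25.1% were called higher in lung and 25.0% lower. Platelet markers (11 genes, including Pf4 and Ppbp) summed to 3.32, 7.41 and 4.48 CPM in KEP lung and 437, 274 and 310 CPM in KEP blood, and all 11 were called lower in lung, with Gp6 at 0 in all 3 lung libraries. Red cell markers summed to 181, 361 and 142 CPM in lung and 2078, 4634 and 4225 CPM in blood, with 9 of 10 called lower. Alveolar macrophage markers summed to 11.3, 33.8 and 32.8 CPM in lung and 1.90, 0.45 and 1.29 CPM in blood, with 8 of 9 tested members called higher. Endothelial and stromal markers other than Pecam1 summed to 43.9, 86.2 and 23.6 CPM in lung and 7.70, 10.2 and 6.46 CPM in blood, and 12 of 14 members tested were called higher. B cell markers, mostly Ighm, summed to 460 to 496 CPM in lung and 824 to 1011 CPM in blood, with 6 of 11 called lower in lung and Ebf1 at 0 there. Without lung replicate 1 or blood replicate 1 that count was 3. CD8 T and NK cell markers summed to 70.5, 123 and 90.8 CPM in lung and 70.6, 227 and 89.1 CPM in blood, where the groups overlapped. Mast cell and basophil markers summed to 37.2, 14.9 and 18.8 CPM in lung and 7.07, 2.16 and 2.76 CPM in blood. Of 4 tested members 3 were higher (Kit, Gata2 and Hdc) and 1 lower, and Cpa3, Mcpt8, Prss34, Fcer1a and Tpsb2 were at 0 in all KEP lung libraries. Macrophage and monocyte markers, mostly Ccr2, summed to 661 to 795 CPM in lung and 1269 to 1522 CPM in blood. Of 14 tested, 4 were higher (Cd68, Cd14 and Mertk among them) and 3 lower, Ccr2 among them, shares near those over all genes. Without TMM scaling Ccr2 alone was at 413, 504 and 419 CPM in lung and 1166, 925 and 1028 CPM in blood. It is also counted below as a chemokine receptor. Lung epithelial markers did not move together. Of 7 tested, 3 were higher (Sftpc, Ager at 0.48 and Hopx at 0.38), 1 lower (Epcam, -0.47) and 3 not called. In WT mice 0 were higher and 1 was lower. The sum without Hopx was 35.3, 37.2 and 53.5 CPM in lung and 58.5, 36.6 and 41.3 CPM in blood, an overlapping range. Sftpc had 121 counts in lung and none in blood, at least 35.4-fold higher by a floor of 3 counts over the blood group. The part of these cells in the results below was not tested. In sorted bulk cells, fewer cells of a type and less RNA per cell cannot be told apart.

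**Figure D1:**
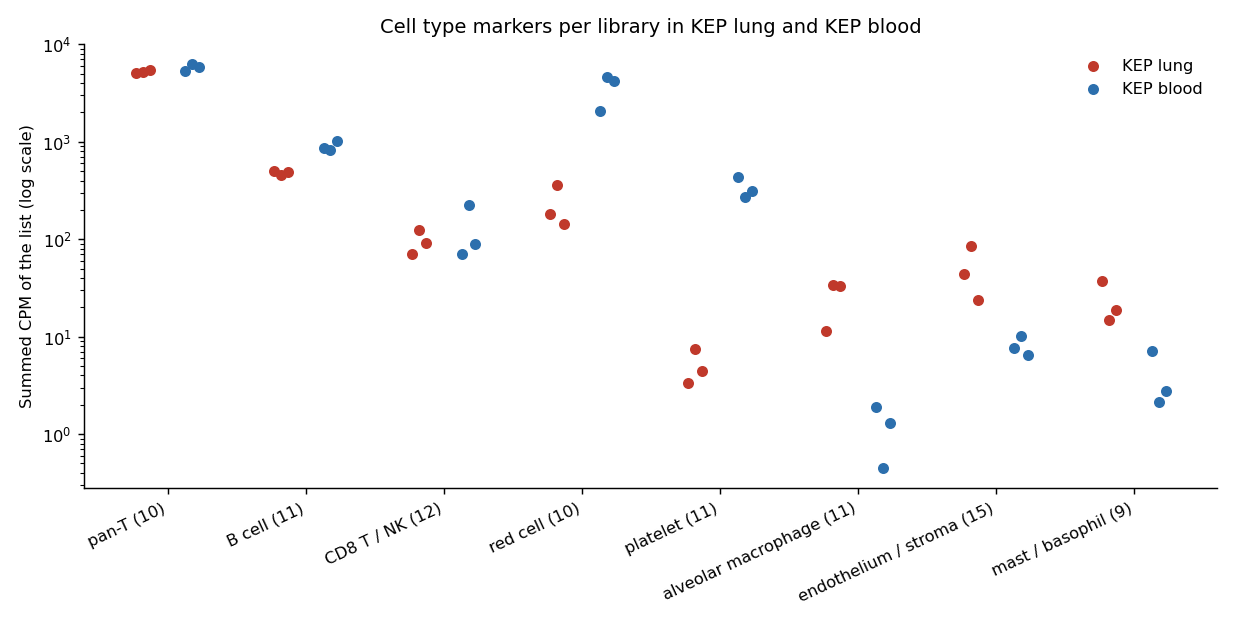
Summed CPM (without TMM scaling, log axis) of the listed marker genes of 8 cell classes in each KEP lung library (red, left of each pair) and each KEP blood library (blue); the endothelial and stromal sum leaves out Pecam1. Platelet sums lie at 3.32 to 7.41 in lung and 274 to 437 in blood, alveolar macrophage sums at 11.3 to 33.8 in lung and 0.45 to 1.90 in blood, and pan-T sums lie close together.

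The difference between the tissues was broad. Of 12825 genes tested, 6416 (50%) were called between KEP lung and KEP blood, 3215 of them higher in lung (25.1% of the genes tested) and 3201 lower (25.0%). With upper-quartile in place of TMM scaling the split was 2596 higher and 4034 lower, so 39.2% of the calls were higher against 50.1%, and the median log2 fold change of all genes was -0.098 against -0.0065. A change of at least 2-fold was called for 1054 genes higher (8.22%) and 781 genes lower (6.09%). These percentages are the background against which each count of a gene list is read. The levels of 6327 genes (49.3%) did not overlap between the 3 lung and 3 blood libraries. Of the 1054 genes higher in lung, 1042 were higher on all 3 dates, and of the 781 lower genes 765 were lower on all 3. These genes were selected by their difference in the same libraries, so this agreement between dates is no separate evidence.

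Among the 12 genes named as higher in lung, the smallest p-values were those of Dusp10, Errfi1 and Rrad. Dusp10 (ENSMUSG00000039384, chr1:184013302-184075636), a phosphatase of the p38 and JNK kinases, was at 733, 799 and 630 CPM in KEP lung, against 25.7, 32.7 and 32.7 CPM in KEP blood (log2 fold change 4.57, SE 0.10, adjusted p = 1.65e-21). Errfi1, an inhibitor of the EGF receptor family, was at 222, 210 and 226 CPM in lung and 9.92, 13.3 and 10.2 CPM in blood (4.30, SE 0.10). Gadd45b, a stress sensor that acts on MAP kinase signalling, was at 689, 634 and 727 CPM in lung and 37.1, 46.2 and 34.8 CPM in blood (4.12, SE 0.10). The 12 genes named in this direction were required to have separate ranges in lung and blood. The others were Fosb, Btg2, Nfkbid, the GTPase Rrad (3.82), the histone H3K27 demethylase Kdm6b (3.36, with an overlapping antisense gene), the antiproliferative Tob2 (3.35), Spty2d1 (3.09), the transcription elongation inhibitor Hexim1 (2.57) and the amino acid carrier Slc38a2 (2.39). Kdm6b was at 1400, 1314 and 1147 CPM in lung and 126, 135 and 114 CPM in blood. In WT mice the same 12 genes had log2 differences of 1.92 to 4.47 apart from Fosb (7.32).

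The 12 genes named as lower in lung lie outside the cell type marker lists by rule, and 4 of them are known from platelets. Whether platelets also express the other 8 was not tested. AI467606 (ENSMUSG00000045165, chr7:127091436-127094049) was at 63.5, 68.8 and 82.4 CPM in KEP lung and 537, 563 and 541 CPM in KEP blood (log2 fold change -2.94, SE 0.10, adjusted p = 7.96e-18). The nuclear long noncoding RNA Neat1, the scaffold of paraspeckles, was at 140, 176 and 155 CPM in lung and 821, 748 and 801 CPM in blood (-2.33, SE 0.11). Il16, the precursor of a T cell cytokine and chemoattractant, was at 143, 208 and 218 CPM in lung and 522, 577 and 540 CPM in blood (-1.54, SE 0.09), with overlapping genes. Tor4a (-2.28), the GDP-fucose carrier Slc35c1 (-1.62), the zinc finger gene Zkscan8 (-2.35), Ap5b1 (-1.87) and AI837181 (-1.40) were lower as well. Alox12, the platelet 12-lipoxygenase, was at 0.165, 0.189 and 0.0928 CPM in lung and 53.0, 30.8 and 35.5 CPM in blood (-8.01, SE 0.32). The coagulation factor gene F5 (-5.66), the myosin light chain gene Myl9 (-6.05) and Plek (-3.11), which encodes pleckstrin, moved with the platelet markers, whose sum was 3.32 to 7.41 CPM in lung and 274 to 437 CPM in blood; the part of platelet RNA in these values was not tested.

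**Figure D2:**
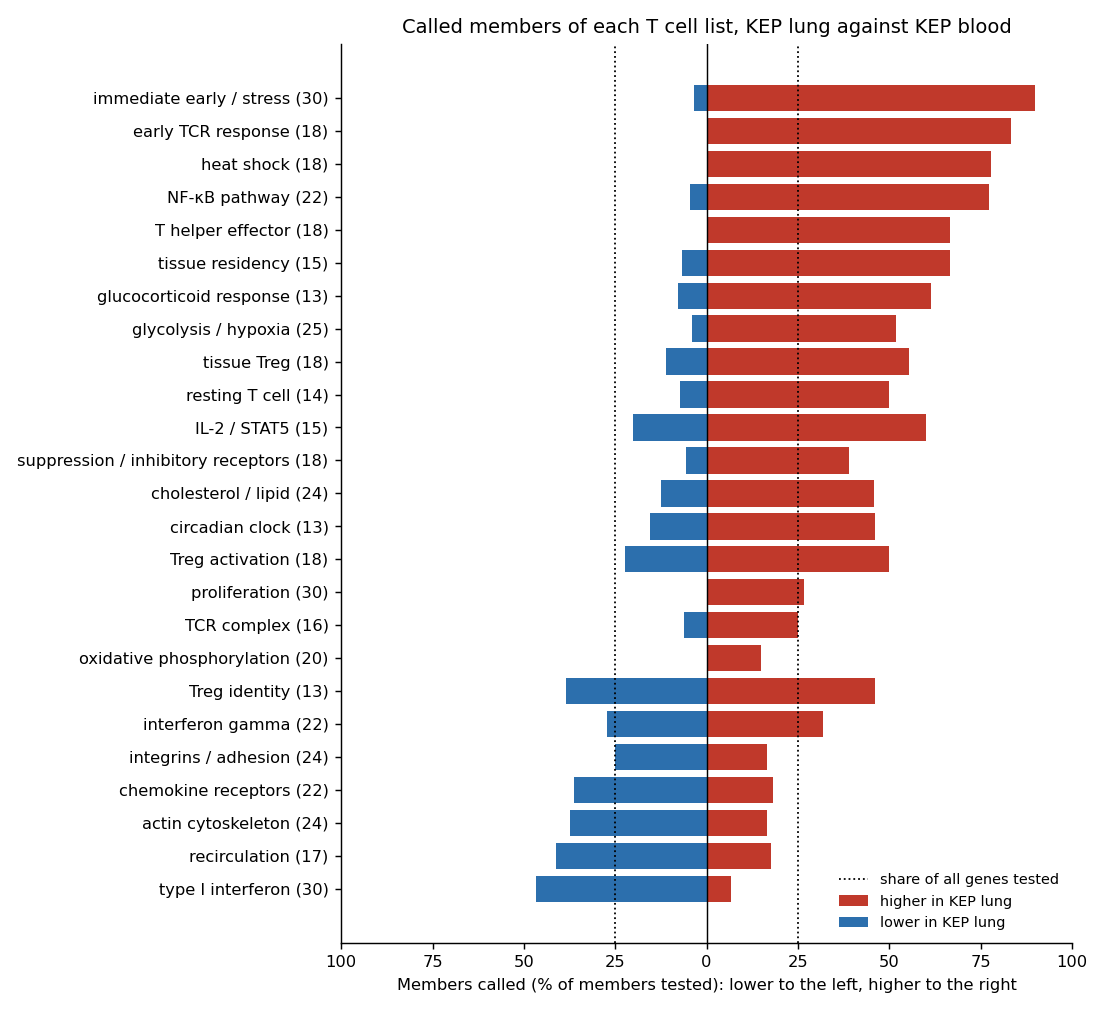
Share of the tested members of each T cell gene list (number tested in parentheses) called higher in KEP lung (red, right of 0) or lower (blue, left of 0) against KEP blood; dotted lines mark the shares over all genes tested, 25.1% higher and 25.0% lower. Immediate early and stress genes lead with 27 of 30 higher, and type I interferon genes end the order with 14 of 30 lower.

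Immediate early and stress genes had the highest share of members called higher among the 25 T cell lists. Of 30 members, 27 were called higher in lung, 1 lower and 2 in neither direction, with a median log2 fold change of 1.90 against -0.0065 over all genes tested. Fosb (ENSMUSG00000003545, chr7:19302721-19310045), an AP-1 subunit, was at 1630, 872 and 1334 CPM in KEP lung and 7.63, 3.97 and 4.18 CPM in KEP blood (log2 fold change 7.93, SE 0.16, adjusted p = 4.13e-20). Its AP-1 partner Junb was at 3427, 4044 and 4149 CPM in lung and 385, 264 and 255 CPM in blood (3.71, SE 0.22), a value made uncertain by the overlapping gene Prdx2. Atf3, a stress-induced repressor, was at 206, 105 and 237 CPM in lung and 0.104, 0.0901 and 0.341 CPM in blood (9.85, SE 0.28). The small MAF factor Maff was at 155, 110 and 131 CPM in lung and 0.836, 1.44 and 0.341 CPM in blood (7.22, SE 0.21). Btg2, an antiproliferative gene that speeds mRNA decay, was at 1371, 1534 and 1358 CPM in lung and 295, 335 and 304 CPM in blood (2.19, SE 0.06). Ier5 rose less, to 370, 351 and 432 CPM in lung, against 106, 107 and 105 CPM in blood (1.85, SE 0.07). The member that fell was Klf10, a TGF-beta induced repressor, at 51.4, 39.1 and 40.2 CPM in lung and 68.7, 62.3 and 76.7 CPM in blood (-0.66, SE 0.12). Klf6 (0.07, adjusted p = 0.648) and Socs3 (0.06, adjusted p = 0.742) were not called.

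Of genes switched on early after T cell receptor stimulation, 15 of 18 were called higher and none lower (median 2.23; 15 of the 18 did not overlap between tissues). The orphan nuclear receptor Nr4a3 (ENSMUSG00000028341, chr4:48045153-48086447) was at 1667, 1060 and 1069 CPM in KEP lung and 2.30, 2.43 and 1.71 CPM in KEP blood (log2 fold change 9.17, SE 0.22, adjusted p = 4.92e-16). Its relative Nr4a1 was at 1890, 1639 and 1803 CPM in lung and 19.3, 16.7 and 20.6 CPM in blood (6.55, SE 0.25). Egr1 was at 384, 217 and 346 CPM in lung and 7.42, 7.21 and 4.86 CPM in blood (5.59, SE 0.18), and Egr2, a factor of T cell unresponsiveness, at 39.7, 23.9 and 27 CPM in lung and 0.418, 0.541 and 0.0853 CPM in blood (6.4, SE 0.29). The NF-kappaB subunit gene Rel (2.81) and the ERK phosphatase gene Dusp5 (2.47) rose as well. Cd5, whose surface level follows receptor signal strength, was not called (0.06), nor were Tagap (0.16) and Spry2 (1.94). Of the receptor complex and its proximal kinases, 4 of 16 members were higher, a share near that of all genes (Cd28 0.41, Lcp2 0.39 and Prkcq 0.28 among them), Cd3d was lower (-0.27), and 11 were not called, Cd3e among them (-0.17, adjusted p = 0.0526). With upper-quartile scaling 5 members of that complex list were lower, and Cd3e and Cd4 were called lower. Without blood replicate 1 the count of lower members was 2 and Cd3e was called (edgeR adjusted p = 0.0420). The calls of Cd28, Lcp2, Prkcq and Cd3d were lost when the tumor and mammary gland libraries entered the fit.

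**Figure D3:**
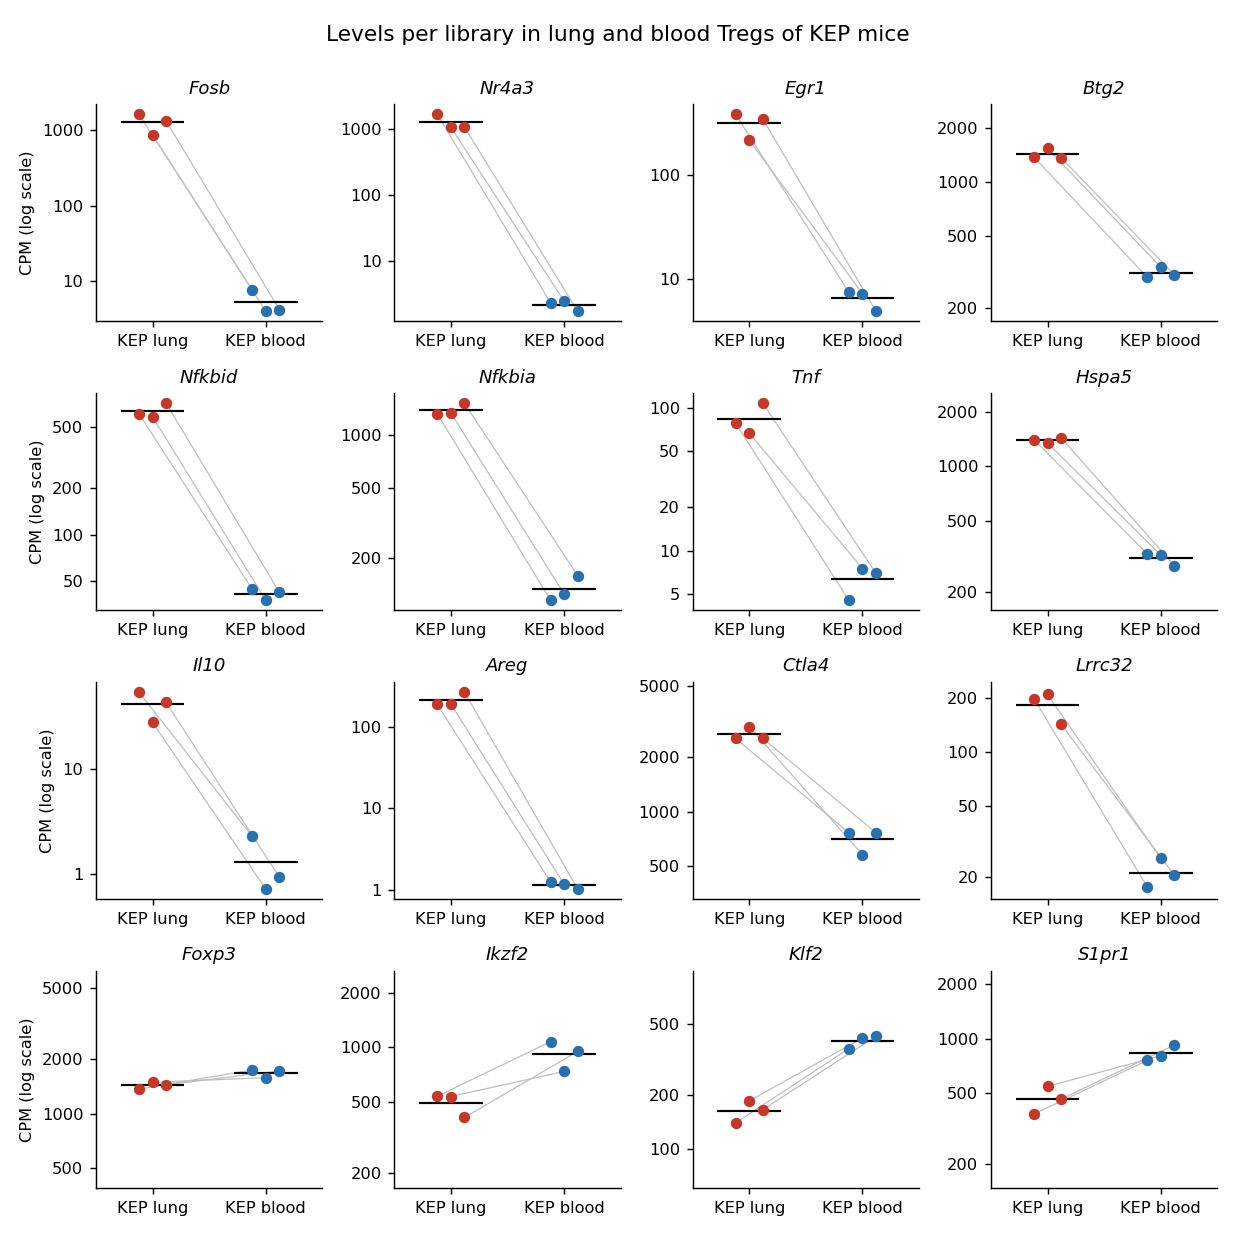
CPM per library (log axis) of 16 named genes in KEP lung (red, left) and KEP blood (blue, right); thin lines join libraries of the same date and black bars are means of 3. Lung lies above blood without overlap for the first 12 genes and below it for Foxp3, Ikzf2, Klf2 and S1pr1.

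The NF-kappaB list gave 17 of 22 members higher, 1 lower (Traf2, -0.30) and a median of 1.38. Of the IkappaB family genes on the list, Nfkbiz, Nfkbid and Nfkbia rose as given below. Nfkbie rose by 1.14 and Bcl3 by 1.08 on the log2 scale, and Nfkbib was not called (0.16). Nfkbia (ENSMUSG00000021025, chr12:55489411-55492647), which encodes IkappaB-alpha, was at 1315, 1326 and 1507 CPM in KEP lung and 115, 124 and 158 CPM in KEP blood (log2 fold change 3.39, SE 0.12, adjusted p = 2.54e-15). Nfkbid, the atypical inhibitor IkappaBNS that takes part in Treg development, was at 612, 584 and 715 CPM in lung and 44.2, 37.5 and 42.1 CPM in blood (3.95, SE 0.11). Nfkbiz, another nuclear member of that family, was at 1280, 900 and 1381 CPM in lung and 61.0, 49.1 and 56.4 CPM in blood (4.41, SE 0.18). The ubiquitin-editing enzyme A20, from Tnfaip3, was at 3903, 4164 and 3976 CPM in lung and 296, 263 and 260 CPM in blood (3.88, SE 0.25). The cytokine gene Tnf was at 77.8, 66.3 and 107 CPM in lung and 4.49, 7.48 and 6.91 CPM in blood (3.71, SE 0.13). Among the subunit genes, Nfkb2, which overlaps Psd, was at 259, 230 and 274 CPM in lung and 75.5, 67.5 and 89.3 CPM in blood (1.72), Relb differed by 1.81, Nfkb1 by 0.61, Rela by 0.45 and Rel, counted with the early T cell receptor genes, by 2.81. The kinase gene Map3k8 was higher (2.11).

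Promoters of 5 members of these lists are shown because their lists moved together and because each holds a match to the cAMP response element TGACGTCA or to the kappaB motif. The windows run from 250 bases before to 50 after the start of the RefSeq transcript (GRCm38.p6), written along the gene's strand in lower case, with every match to these motifs in capitals, searched on both strands. The kappaB motif was the consensus of Rel family binding on either strand, and where a gene has several RefSeq starts the window of 1 of them is shown.
Btg2 (chr1:134079106-134079405, minus strand): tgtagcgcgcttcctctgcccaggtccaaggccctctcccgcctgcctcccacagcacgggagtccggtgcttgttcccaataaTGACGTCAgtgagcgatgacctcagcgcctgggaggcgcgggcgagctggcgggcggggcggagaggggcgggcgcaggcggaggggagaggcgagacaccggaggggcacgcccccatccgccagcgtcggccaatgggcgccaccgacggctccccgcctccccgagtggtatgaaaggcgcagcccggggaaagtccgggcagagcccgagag
Maff (chr15:79347270-79347569, plus strand): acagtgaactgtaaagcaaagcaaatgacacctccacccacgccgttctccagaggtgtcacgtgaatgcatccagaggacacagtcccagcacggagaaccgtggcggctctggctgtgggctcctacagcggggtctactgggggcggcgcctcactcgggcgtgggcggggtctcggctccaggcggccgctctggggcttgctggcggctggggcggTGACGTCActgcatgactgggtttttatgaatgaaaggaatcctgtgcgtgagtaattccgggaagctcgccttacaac
Nfkbid (chr7:30422156-30422455, plus strand): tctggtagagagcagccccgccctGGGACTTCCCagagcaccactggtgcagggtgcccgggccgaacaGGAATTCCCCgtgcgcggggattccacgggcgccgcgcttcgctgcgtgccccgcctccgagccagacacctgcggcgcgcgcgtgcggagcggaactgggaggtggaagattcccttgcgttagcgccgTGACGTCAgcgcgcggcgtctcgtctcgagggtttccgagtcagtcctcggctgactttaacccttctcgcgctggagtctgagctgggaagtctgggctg
Nfkbia (chr12:55492598-55492897, minus strand): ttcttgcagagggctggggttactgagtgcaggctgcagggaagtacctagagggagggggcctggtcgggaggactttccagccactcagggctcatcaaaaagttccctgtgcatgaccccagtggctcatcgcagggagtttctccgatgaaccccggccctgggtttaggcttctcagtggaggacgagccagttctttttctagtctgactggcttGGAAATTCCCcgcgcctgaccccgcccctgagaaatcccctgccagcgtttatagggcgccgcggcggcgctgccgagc
Nfkb2 (chr19:46304487-46304786, plus strand): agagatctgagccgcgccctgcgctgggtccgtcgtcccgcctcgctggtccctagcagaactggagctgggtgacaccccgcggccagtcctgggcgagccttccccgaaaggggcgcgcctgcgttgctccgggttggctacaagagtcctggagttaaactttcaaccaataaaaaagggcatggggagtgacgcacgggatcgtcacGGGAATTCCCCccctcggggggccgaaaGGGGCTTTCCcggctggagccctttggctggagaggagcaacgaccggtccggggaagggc
The Btg2 match starts 166 bases before the transcript's start and the Maff match 29 bases before it. Nfkbid holds kappaB matches 226 and 181 bases before the start and a TGACGTCA match 51 bases before it. The Nfkbia match starts 29 bases before the start, and those of Nfkb2 39 and 11 bases before it. TGACGTCA was in a promoter of 4 of the 25 immediate early and stress genes with a RefSeq window (16%: Btg2, Dusp1, Ppp1r15a and Maff) and of 2.03% of 27025 genes (1.79% of 32851 promoters). The kappaB motif was in 8 of 16 NF-kappaB list genes (50%), against 5.14% of all genes and 4.51% of promoters. The AP-1 motif TGANTCA was in 1 of 25 immediate early genes, in 5 of 16 NF-kappaB list genes and in 8.97% of all genes. These matches are letters in a window and say nothing of binding; many list members were chosen as known targets of these factors, so their share is no independent evidence.

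Summed over the list as CPM without TMM scaling, like every list sum here, immediate early and stress genes took 19850, 19901 and 21138 CPM in KEP lung and 6713, 6210 and 6188 CPM in KEP blood. In KEP mice the sum was 5734 to 6077 CPM in spleen and 5311 to 5472 CPM in tumor-draining lymph node, both near blood, and 14558 to 18524 CPM in tumor. It was 22260 to 24136 CPM in WT lung and 5750 to 7029 CPM in WT blood. The tumors were digested with collagenase for 1 h at 37 °C, while no digestion is stated for spleen, lymph node or the WT mammary gland, where the sum was 18572 to 29249 CPM. NF-kappaB genes summed to 9026 to 10258 CPM in KEP lung and 2520 to 2672 CPM in KEP blood, to 3326 to 3773 CPM in KEP spleen and lymph node, and to 5881 to 14005 CPM in tumor. In WT mammary gland the NF-kappaB sum was 2921 to 6149 CPM, with a median of 3334 CPM, against 8638 to 10000 CPM in WT lung and 2920 to 3426 CPM in WT blood. The part of digestion in these sums was not tested.

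**Figure D4:**
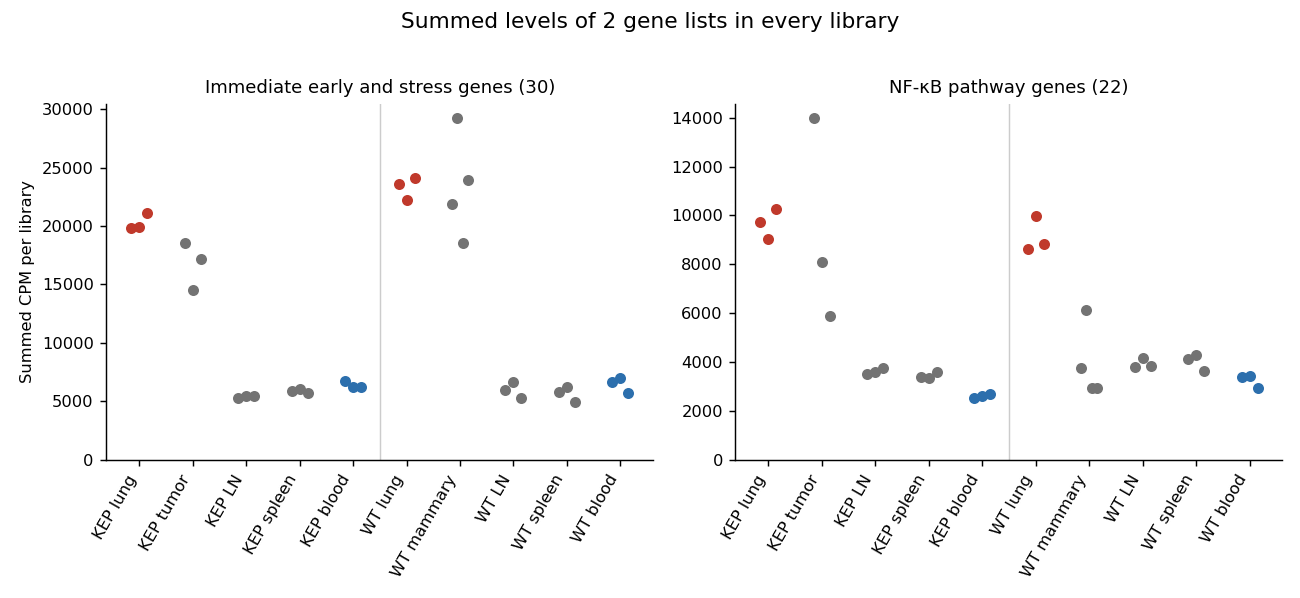
Summed CPM (without TMM scaling) of 30 immediate early and stress genes (left panel) and 22 NF-kappaB pathway genes (right panel) in every library of the series, KEP groups left of the vertical line and WT groups right of it, lung in red, blood in blue and other tissues in grey. KEP lung lies at 19850 to 21138 and KEP blood at 6188 to 6713 in the left panel.

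Heat shock genes were higher in 14 of 18 cases and lower in none (median 1.06). Hspa5, the chaperone BiP of the endoplasmic reticulum, was at 1411, 1352 and 1441 CPM in KEP lung and 327, 322 and 281 CPM in KEP blood (log2 fold change 2.18, SE 0.08, adjusted p = 8.80e-18). The co-chaperone Bag3 was at 94.0, 117 and 101 CPM in lung and 24.5, 20.7 and 21.6 CPM in blood (2.23, SE 0.12). Dnajb4 (1.78), Hspa8 (1.21) and Hsp90ab1 (0.99) rose as well. Hspa8 ordered the dates alike in both tissues, at 1211, 1048 and 918 CPM in lung and 592, 463 and 345 CPM in blood. Hspa1a and Hspa1b, near-identical copies whose reads may be split between them, differed by 3.23 and 3.88 from low levels in blood (1.71 CPM or less).

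Genes that mark Tregs divided. Of 13 tested, 6 were higher in lung, 5 lower and 2 not called, with a median of 0.31. Ctla4 was at 2546, 2960 and 2550 CPM in KEP lung and 762, 576 and 760 CPM in KEP blood (log2 fold change 1.95, SE 0.15, adjusted p = 1.80e-08). Lrrc32, which encodes the surface anchor GARP for latent TGF-beta, was at 197, 208 and 142 CPM in lung and 17.8, 25.5 and 20.6 CPM in blood (3.08, SE 0.17). Itgb8 (0.83), whose integrin frees TGF-beta from that complex, and the decoy receptor gene Il1r2 (1.54) rose with them. Il2ra, the gene of the sorted CD25, was at 1128, 797 and 937 CPM in lung and 814, 633 and 818 CPM in blood, an overlapping range (0.34, SE 0.08, adjusted p = 0.000868). Ikzf2, the gene of Helios, was at 535, 534 and 408 CPM in lung and 1076, 736 and 951 CPM in blood (-0.89, SE 0.11), with no overlap. Foxp3 itself was lower by a small margin (-0.23, SE 0.08, adjusted p = 0.0135), and Ikzf4 (-0.48), Tnfrsf18 (-0.27) and Capg (-0.19) were the other lower members. The count of 5 lower members was 2 without the date block, without lung replicate 1 or without lung replicate 3, and 3 without blood replicate 1 or 2. The calls of Foxp3 (adjusted p = 0.0818) and Il2ra (0.0538) were lost without the date block. That of Foxp3 was also lost without lung replicate 1 (0.104), lung replicate 3 (0.0929) or blood replicate 1 (0.0744) and in a fit of the 6 libraries alone (0.0593). When the tumor and mammary gland libraries entered the fit, Foxp3, Il2ra and Ikzf2 lost their calls, and without the date block Il1r2 did too.

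Activation and suppression genes leaned to lung. Of 18 activation genes 9 were higher and 4 lower (median 0.25). Icos, a costimulator of effector Tregs, was at 1815, 2190 and 1600 CPM in KEP lung and 778, 770 and 716 CPM in KEP blood (1.30, SE 0.11). Irf4, a factor of effector Tregs, was at 687, 615 and 693 CPM in lung and 165, 139 and 173 CPM in blood (2.07, SE 0.11). Tnfrsf9, the gene of 4-1BB, was at 365, 207 and 268 CPM in lung and 68.6, 35.0 and 64.0 CPM in blood (2.34, SE 0.18), and Tnfsf11 (1.79) and Tnfrsf1b (0.73) rose as well. The lower members were Klrg1 (-0.67), Maf (-0.43), Cd80 (-0.78) and Myo1g (-0.40), and Prdm1, the gene of Blimp-1, was not called (0.01). Of 18 genes of suppression and inhibitory receptors 7 were higher, 1 (Tox, -0.29) was lower and 10 were not called (median 0.16). Il10 was at 54.8, 28.1 and 43.6 CPM in lung and 2.30, 0.721 and 0.938 CPM in blood (5.05, SE 0.34, adjusted p = 3.59e-10). Areg, whose product amphiregulin takes part in tissue repair by Tregs, was at 188, 190 and 267 CPM in lung and 1.25, 1.17 and 1.02 CPM in blood (7.55, SE 0.34). Areg is also a marker of group 2 innate lymphoid cells; of the 5 tested members of the eosinophil and innate lymphoid list, Areg, Il5 (3.07) and Il13 (3.03) were higher, Ccr3 was lower and Il1rl1 was not called. Il5 was at 18, 0.0946 and 6.96 CPM in lung and 1.57, 0.0901 and 0.938 CPM in blood, and Il13 at 19.4, 0.851 and 8.63 CPM in lung and 2.72, 0 and 0.938 CPM in blood, both with overlapping ranges. The eosinophil genes Epx and Prg2 were at 0 in all KEP lung and KEP blood libraries. The list sum, mostly Il1rl1, was 1286 to 1526 CPM in lung and 1132 to 1743 CPM in blood, and the part of such cells in the Areg value was not tested. The inhibitory receptor gene Pdcd1 was at 90.2, 56.7 and 91.5 CPM in lung and 39.0, 25.0 and 30.0 CPM in blood (1.34, SE 0.13). Tgfb1 (0.44) and Nt5e (0.43), the gene of the ectoenzyme CD73, changed little, and Entpd1, the gene of CD39, was not called (-0.13). In the fit with the tumor and mammary gland libraries Icos, Tnfrsf1b, Tgfb1 and Nt5e lost their calls, and without the date block Pdcd1 did too.

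Of 18 genes of tissue Tregs, 10 were higher in lung and 2 lower (median 0.58). Fosl2, an AP-1 subunit, was at 1872, 1767 and 1543 CPM in KEP lung and 29.4, 29.7 and 23.1 CPM in KEP blood (5.98, SE 0.28, adjusted p = 8.18e-10). Nfil3 was at 364, 323 and 297 CPM in lung and 34.1, 36.7 and 33.0 CPM in blood (3.24, SE 0.14). The chemokine receptor gene Ccr8 was at 31.6, 19.4 and 26.9 CPM in lung and 5.43, 4.33 and 7.68 CPM in blood (2.16, SE 0.15), and Il1r1 rose from a low level (2.71). The IL-33 receptor gene Il1rl1 was not called, at 1404, 1208 and 1264 CPM in lung and 1559, 1026 and 1308 CPM in blood (0.02, SE 0.10, adjusted p = 0.909). It was at 449 CPM on average in spleen and 277 CPM in the draining lymph node. Gata3 was lower (-0.49), as was Il9r, at 147, 130 and 172 CPM in lung and 284, 211 and 251 CPM in blood (-0.73, SE 0.08). The call of Il9r was lost when the tumor and mammary gland libraries entered the fit.

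Residency genes were mostly higher in lung, and more recirculation genes were lower than higher. Of 15 residency genes, 10 were higher in lung and 1 lower (median 1.35). Cd69 was at 344, 346 and 370 CPM in KEP lung and 89.2, 79.1 and 79.6 CPM in KEP blood (log2 fold change 2.1, SE 0.10, adjusted p = 1.77e-13). Csrnp1 was at 1413, 1139 and 1351 CPM in lung and 61.4, 74.7 and 64.0 CPM in blood (4.29, SE 0.15), and Vps37b, which overlaps Hip1r, at 1893, 2207 and 1711 CPM in lung and 74.6, 81.9 and 76.0 CPM in blood (4.64, SE 0.17). The regulators of G protein signalling Rgs2 (4.48) and Rgs16 (3.76) rose, the second with an overlapping gene. Itgae, the gene of the epithelium-binding integrin CD103, went the other way, at 595, 965 and 733 CPM in lung and 988, 1082 and 1051 CPM in blood (-0.46, SE 0.15, adjusted p = 0.0183), and Cxcr6 was not called (-0.55, adjusted p = 0.303). The call of Itgae, the sole member lower, was lost without lung replicate 1, lung replicate 3 or blood replicate 1. Of 17 recirculation genes, 7 were lower and 3 higher (median -0.17). Klf2 (ENSMUSG00000055148, chr8:72319033-72321656) was at 141, 186 and 167 CPM in lung and 364, 416 and 426 CPM in blood (-1.29, SE 0.09, adjusted p = 2.40e-11). S1pr1 was at 381, 543 and 461 CPM in lung and 757, 804 and 921 CPM in blood (-0.85, SE 0.09), and S1pr4 at 221, 357 and 254 CPM in lung and 461, 492 and 495 CPM in blood (-0.81, SE 0.11). Rasgrp2 was lower as well (-0.47). Ccr7, the receptor for entry into lymph nodes, was higher, at 593, 700 and 318 CPM in lung and 90.3, 201 and 119 CPM in blood (1.97, SE 0.23). With the tumor and mammary gland libraries in the fit, S1pr4 and Rasgrp2 lost their calls with or without the date block, and Ccr7 without it. The count of 3 higher members was 1 without the date block or without lung replicate 2.

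Chemokine receptors showed 8 of 22 members lower, 4 higher and a median of -0.04. Cxcr4, the receptor of CXCL12, was at 1347, 1442 and 1663 CPM in KEP lung and 420, 275 and 272 CPM in KEP blood (2.25, SE 0.27, adjusted p = 1.22e-05), and Ccrl2 rose too (2.39). Ccr3 was at 41.7, 46.5 and 34.7 CPM in lung and 161, 106 and 99.1 CPM in blood (-1.55, SE 0.19). Gpr15, a gut and skin homing receptor that overlaps Cpox, was lower (-1.54), as was Ccr1 (-1.79, at 1.89 to 3.62 CPM in lung and 5.68 to 15.3 CPM in blood). Ccr2, also a marker of monocytes, was at 452, 566 and 451 CPM in lung and 1154, 926 and 1018 CPM in blood (-1.08, SE 0.20). Ccr4 (0.15) and Cxcr3 (-0.52) were not called. Of 24 integrin and adhesion genes 6 were lower and 4 higher (median -0.13), no more than the shares over all genes (10 lower with upper-quartile scaling, and 2 higher without lung replicate 2 or blood replicate 2). Spn, the gene of CD43, was at 841, 1027 and 976 CPM in lung and 1733, 1824 and 1864 CPM in blood (-0.93, SE 0.07), and Itgb7 was lower by less (-0.36). Icam1 was at 689, 663 and 498 CPM in lung and 183, 187 and 180 CPM in blood (1.75, SE 0.16). Itga2b, the platelet integrin and one of the platelet markers above, was at 2.56, 4.64 and 3.71 CPM in lung and 122, 83.9 and 96.8 CPM in blood (-4.79). The calls of Spn and Itgb7 were lost when the tumor and mammary gland libraries entered the fit.

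Genes of resting T cells were higher alongside the activation genes, in 7 of 14 cases, with Id3 lower (-0.75; median 0.27). Bach2, a repressor that holds T cells in a resting state and overlaps an antisense gene, was at 52.7, 71.2 and 37.9 CPM in KEP lung and 14.1, 30.8 and 19.1 CPM in KEP blood (1.33, SE 0.16, adjusted p = 1.29e-06). Satb1 was at 347, 450 and 243 CPM in lung and 121, 223 and 144 CPM in blood (1.09, SE 0.13). Tcf7 was at 381, 651 and 524 CPM in lung and 142, 463 and 256 CPM in blood, an overlapping range in which date 2 was highest in both tissues (0.93, SE 0.21). Lef1 (-0.07) and Il7r (-0.32) were not called. The call of Id3 was lost when any lung replicate or blood replicate 1 was left out. That of Tcf7 was lost with the tumor and mammary gland libraries in the fit, and without the date block that of Satb1 too.

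T helper genes were higher in 12 of 18 cases and lower in none (median 1.89), most at low levels. Ifng was at 17.5, 25.9 and 14.8 CPM in KEP lung and 0.522, 3.34 and 1.28 CPM in KEP blood (3.51, SE 0.35, adjusted p = 8.16e-08). Il17a was at 4.22, 0.473 and 9.65 CPM in lung, 160 counts in all, and had no count in blood, which makes it at least 46.8-fold higher in lung by a floor of 3 counts over the blood group. DESeq2 did not call Il17a (adjusted p = 0.274), while edgeR did (4.30e-06). Il17f was at 3.14, 1.04 and 13.3 CPM in lung and 0.104, 0.0901 and 0.341 CPM in blood. The receptor gene Il4ra was at 836, 810 and 669 CPM in lung and 283, 330 and 314 CPM in blood (1.32, SE 0.09), and Bcl6, the factor of follicular cells, rose too (1.34). The lineage factor gene Tbx21 was not called (0.99). Gamma delta T cell markers, another known source of IL-17, summed to 12.9 to 28.4 CPM in lung and 5.94 to 36.8 CPM in blood, and none of 5 tested was called; their part in the result was not tested.

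Type I interferon genes were the list with the most members lower, 14 of 30, with 2 higher and a median of -0.39. Slfn8 was at 52.8, 65.7 and 62.1 CPM in KEP lung and 157, 138 and 144 CPM in KEP blood (log2 fold change -1.28, SE 0.09, adjusted p = 5.99e-12), and its relative Slfn1 at 33.0, 37.8 and 45.3 CPM in lung and 126, 120 and 130 CPM in blood (-1.70, SE 0.14). Schlafen genes are close copies, so reads may be split between them. Xaf1 (-1.52) and the signalling factor Stat2 (-0.54) fell with them. Rsad2, the gene of viperin, was at 2.81, 2.65 and 2.41 CPM in lung and 9.61, 39.7 and 30.0 CPM in blood (-3.20, SE 0.65). Isg15 was higher instead, at 19.7, 15.1 and 16.5 CPM in lung and 7.21, 5.68 and 8.02 CPM in blood (1.29, SE 0.18), as was Oasl2 (0.96), and 14 members, Irf7 (0.10) among them, were not called. The count of 2 higher members was 1 without the date block and without replicate 2 or 3 of either tissue. Genes of the interferon gamma response divided, 7 of 22 higher and 6 lower (median 0.06), near the shares over all genes. Irf1 was at 591, 928 and 871 CPM in lung and 215, 280 and 282 CPM in blood (1.61, SE 0.10), and Cd274, the gene of PD-L1, at 217, 167 and 209 CPM in lung and 93.0, 79.5 and 112 CPM in blood (1.07, SE 0.08). Irf8 rose (0.75), while the antigen processing genes Tap1 (-0.71) and Psmb9 (-0.58), which overlap each other, were lower. The calls of Irf8, Tap1 and Psmb9 were lost with the tumor and mammary gland libraries in the fit.

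Of genes tied to IL-2 and STAT5 signalling, 9 of 15 were higher and 3 lower (median 0.55). Cdkn1a, the gene of the cell cycle inhibitor p21, was at 311, 219 and 263 CPM in KEP lung and 12.3, 7.12 and 6.48 CPM in KEP blood (4.97, SE 0.14, adjusted p = 3.10e-19). Pim2 (0.94), Nampt (0.95) and Stat5b (0.52) rose by less, and the cytokine gene Osm was at 34.2, 23.2 and 26.2 CPM in lung and 58.9, 52.6 and 59.4 CPM in blood (-1.03, SE 0.10). Cell cycle genes gave 8 of 30 higher (26.7%, near the 25.1% of all genes) and none lower, and rested on lung replicate 1. Their sum, without TMM scaling, was 2720, 991 and 949 CPM in lung and 1285, 973 and 912 CPM in blood. Without lung replicate 1 the list had 2 members higher and 2 lower, and without blood replicate 1 it had 3 higher and 2 lower. Cdk1 was at 36.1, 3.59 and 5.38 CPM in lung and 13.2, 1.98 and 5.63 CPM in blood, and lost its call without lung replicate 1 (0.30, adjusted p = 0.446), as did Mcm3 (0.39, 0.142) and Mcm6 (0.51, 0.0504). Without blood replicate 1 Cdk1 (adjusted p = 0.140) and Mcm3 (0.121) were not called, nor was Cdk1 without blood replicate 2 (0.0527) or Mcm3 without blood replicate 3 (0.0553). Without the date block 2 members were higher, and Cdk1 (0.274), Aurka (0.104) and Mcm3 (0.0520) were not called. Pcna, the DNA polymerase clamp and also a p53 target, was at 291, 203 and 192 CPM in lung and 85.2, 75.6 and 75.8 CPM in blood (1.51, SE 0.09) and kept its call in all of these fits. With the tumor and mammary gland libraries in the fit, Stat5b, Cdk1, Aurka, Mcm3 and Mcm6 lost their calls.

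Glucocorticoid response genes were higher in 8 of 13 cases (median 1.24). Per1, a clock gene that glucocorticoids also induce, was at 348, 315 and 292 CPM in KEP lung and 59.5, 58.0 and 51.0 CPM in KEP blood (2.50, SE 0.12, adjusted p = 3.69e-13). Klf9 was at 32.8, 31.1 and 29.8 CPM in lung and 4.49, 6.4 and 3.41 CPM in blood (2.72, SE 0.19), and the receptor gene Nr3c1 at 599, 499 and 395 CPM in lung and 290, 230 and 226 CPM in blood (0.99, SE 0.09). Sgk1 rose as well (1.24). The steroid targets Tsc22d3 (-0.61, lower) and Fkbp5 (-0.08, not called) did not move with them, and the call of Tsc22d3 was lost without the date block. Of 13 clock genes 6 were higher and 2 lower (median 0.16): Ciart (1.72) and Nr1d2 (0.62) rose, and Nr1d1 (-0.90) and Dbp (-0.75), both with overlapping genes, fell. The call of Dbp was lost with the tumor and mammary gland libraries in the fit. The time of day at which mice were taken is not given in the sources used here.

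Of 25 glycolysis and hypoxia genes 13 were higher and 1, Slc2a3 (-0.25), lower, a call that was lost without lung replicate 1 (median 0.17). Hexokinase gene Hk2 was at 38.4, 19.8 and 17.5 CPM in KEP lung and 4.70, 1.44 and 2.56 CPM in KEP blood (3.12, SE 0.21, adjusted p = 4.16e-12). Vegfa was at 8.44, 9.84 and 5.57 CPM in lung and 0, 0.0901 and 0.256 CPM in blood (5.86, SE 0.59). Ldha (0.64) and the glucose carrier gene Slc2a1 (0.62) rose by less, and Gapdh (1.63) is uncertain, since its many processed pseudogenes share its reads and only 14.9 to 16.9 CPM in lung and 4.06 to 7.63 CPM in blood were counted for it. Of 24 cholesterol and lipid genes 11 were higher and 3 lower (median 0.22). Insig1, a sterol sensor, was at 149, 139 and 135 CPM in lung and 28.7, 28.6 and 29.8 CPM in blood (2.28, SE 0.09), Cyp51 differed by 1.03, Idi1 by 0.82, Fabp5 by 1.37 and Cd36, which endothelium and macrophages also express, by 5.07. Of 20 oxidative phosphorylation genes 3 were higher (Cycs 0.54, Atp5b 0.34 and Atp5a1 0.25) and 17 not called (median 0.02); with upper-quartile scaling 4 were lower, without blood replicate 1 and 2 the counts lower were 1 and 2, and Atp5a1 lost its call. The calls of Atp5a1 and Atp5b were lost with the tumor and mammary gland libraries in the fit, and that of Atp5a1 without blood replicate 1 (0.15). Of 24 genes of the actin cytoskeleton 9 were lower and 4 higher (median -0.12). Actb was at 2980, 2874 and 3017 CPM in lung and 4721, 6046 and 5700 CPM in blood (-0.89, SE 0.07), while Actg1 was at 3251, 2888 and 2622 CPM in lung and 1568, 1884 and 1932 CPM in blood (0.70, SE 0.08). Pfn1 (-0.31) and S100a10 (-0.37) were lower and Ezr (0.42) higher, and these calls were lost with the tumor and mammary gland libraries in the fit.

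The same contrast in WT mice, which shares no library with the KEP contrast, called 6182 genes (48.2%). Across the 12825 genes the log2 fold changes of KEP and WT correlated with r = 0.878 (genes are not independent). Of the 1054 genes higher in KEP lung by at least 2-fold, 923 (87.6%) were called higher in WT lung and 1 lower, and of the 781 lower genes 622 (79.6%) were called lower and none higher. Some WT lists had counts near those of KEP. There 28 of 30 immediate early genes, 16 of 18 early T cell receptor genes and 17 of 22 NF-kappaB genes were higher. Other lists were less alike. Cell cycle genes had 2 higher and 3 lower in WT, against 8 and 0 in KEP. Cholesterol and lipid genes had 7 higher and 6 lower in WT against 11 and 3, and oxidative phosphorylation genes 1 and 3 against 3 and 0. Residency genes had 7 higher in WT against 10. No list was tested for a difference between genotypes. The difference between the contrasts, KEP minus WT, was called for no gene (0.00%) by limma-voom or by the main edgeR fit. That fit held 24 libraries, the date block and the filter on low counts. DESeq2 called 22 genes, and other edgeR fits 0 to 227, the most with no filter on low counts. In the main edgeR fit 1093 genes (8.52%) had an unadjusted p under 0.05.

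For that difference 12 genes were named, 6 each way with the smallest p among genes that passed the filters of the named genes. These filters include a call of at least 2-fold in KEP, so genes with a small difference in KEP could not enter. Socs3, outside this set, had the smallest adjusted p with DESeq2 (-0.992, adjusted p = 0.000227). The 12 included 3 genes of the NF-kappaB pathway. Tnf was at 77.8, 66.3 and 107 CPM in KEP lung and 4.49, 7.48 and 6.91 CPM in KEP blood, and at 99.4, 86.9 and 88.9 CPM in WT lung and 15.8, 12.8 and 15.4 CPM in WT blood, a difference of 1.07 (SE 0.19, adjusted p = 0.0641). WT blood lay above KEP blood, while the lungs overlapped. Nfkbiz differed by 1.31 (adjusted p = 0.0964), with 518, 612 and 553 CPM in WT lung, all below the 900 to 1381 CPM of KEP lung. Nfkbia (0.78), Slc7a5 (0.82), Zc3h12a (0.60), the gene of the RNase regnase-1, and Dusp16 (1.22) were the others with a larger difference in KEP. With a smaller one were Hexim1 (-0.45) and Elmsan1 (-0.44), and the genes lower in lung Zswim1 (-0.83) and Ranbp6 (-0.57) were lower by more. Thbs1 (-2.82) and Slc6a4 (-2.53), both known from platelets, were lower by more in KEP, Thbs1 at 0.742 to 1.99 CPM in KEP lung and 33.2 to 35.7 CPM in KEP blood. None of these 12 passed an adjusted p of 0.05 in the main edgeR fit, which does not show that the tissue difference is alike in both genotypes. With DESeq2, 7 of them passed (Tnf and Nfkbiz at an adjusted p of 0.000598, Nfkbia at 0.00076, Slc7a5 at 0.00643, Zc3h12a at 0.0327, Hexim1 at 0.0356 and Elmsan1 at 0.0416), and with no filter on low counts all 12 passed in edgeR. Tnf also passed without KEP lung replicate 2 (0.00117) or KEP blood replicate 2 (0.00756), as did Slc7a5 (0.0123 and 0.0358), and Nfkbiz without KEP lung replicate 2 (0.0204).

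**Figure D5:**
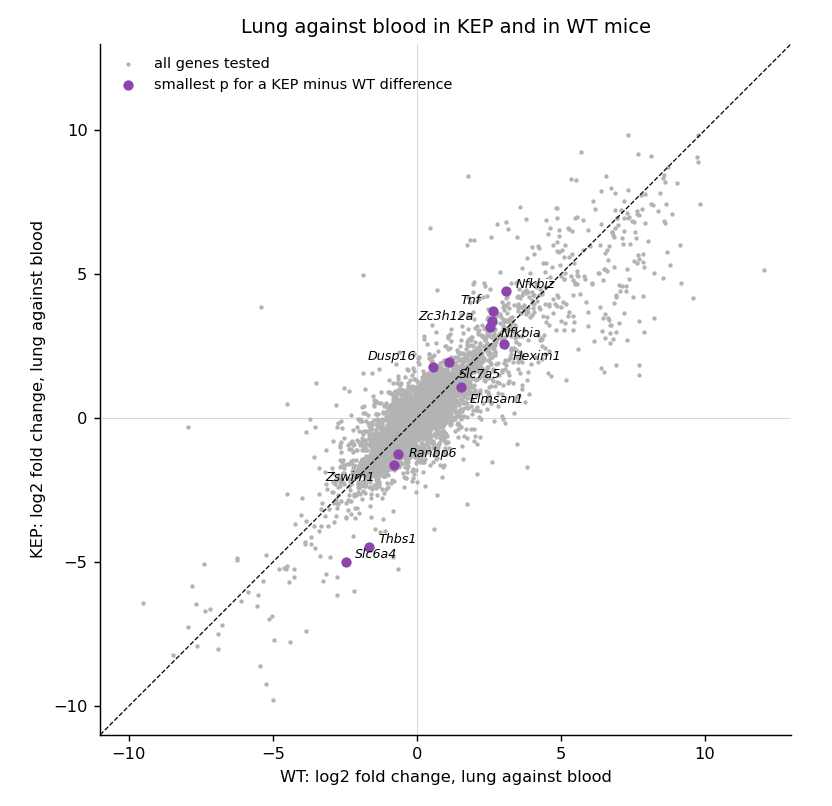
Log2 fold change of lung against blood for each of the 12825 genes tested, in KEP mice (vertical axis) and WT mice (horizontal axis), with a dashed line of equal change. In purple are the 12 genes named for the KEP minus WT difference, those of smallest p among genes that passed the filters of the named genes. The points follow the line (r = 0.878), and no gene passed an adjusted p of 0.05 for the difference in the main edgeR fit, against 22 in DESeq2.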

How the data were processed

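Poly(A) RNA of sorted Tregs was sequenced as single reads of 65 bases after a stranded kit (TruSeq), per the labels' protocols. Read counts per gene were deposited by the authors as 1 table of raw counts, made with TopHat2 2.1.0 and HTSeq on GRCm38, per the submitters' processing notes; the strand setting of the counting is not given in the sources used here. The table holds 24594 genes, 172 of them without a count in any library. Exons of 6220 genes overlap another gene in GENCODE M21, and 27 of the 157 genes named by rule are among them.

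From these counts, edgeR 4.0.16 (R 4.3.3) was fitted to 24 libraries (blood, spleen, lung and lymph node of KEP and WT mice) with TMM factors, a minimum count of 10 (filterByExpr), 8 group means, the date of the title as a block and robust quasi-likelihood, which left 12 residual degrees of freedom. CPM values are scaled with these factors, except the sums over marker lists and gene lists, which are plain CPM of the library total. P-values are two-sided and adjusted over all 12825 genes. With the date as a block, they measure the spread left between libraries of a group once the shift shared by a date is removed. That spread is estimated over all 24 libraries of the fit, single KEP mice and pools in WT, and not between KEP mice alone. The date block is part of the comparison itself. Libraries of the same date deviated together in KEP mice, in 18 of 18 pairs with a correlation above 0.1 (median 0.333), and in 11 of 18 pairs in WT mice (median 0.107). For the 3 pairs of lung with blood the correlation was 0.248 to 0.333 in KEP mice and 0.00194 to 0.0785 in WT mice.

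The named genes are the 12 higher and 12 lower with the smallest p among genes called with at least a 2-fold change, an average over the 6 libraries of 5 CPM or more and separate ranges in lung and blood, leaving out cell type markers, receptor segments and unnamed genes. To these were added 6 genes each way with the smallest p for the KEP minus WT difference, under the same filters. The 5 called members of each list with the smallest p and 9 genes of identity and genotype were also added. Other list members were named after their values were seen. The members and lists were chosen with earlier results of these data known. The method was tested on simulated data in which a small share of genes changed, in KEP lung only. That setting does not show how the method behaves where as many genes differ as here. Alternatives were other libraries, scalings, filters and designs, DESeq2 1.42.0, limma 3.58.1 and leaving out each KEP lung or blood library. Some list members are counted in their lists but not reported here by name.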

Additional observations from a re-analysis of the deposited data

How the results depend on the processing

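No named gene reversed its direction under any of the 20 alternatives, and 90 of 157 kept their side of the threshold under all of them. Of 82 counts of list members called, 19 stayed equal or close to the main count under all alternatives. With all 31 libraries and the block, Treg identity fell from 5 lower members to 0 and chemokine receptors from 8 to 3. Tested against a 2-fold change, higher members fell from 27 to 21 for immediate early genes and from 15 to 11 for early T cell receptor genes. Adding the tumor and mammary gland libraries (all 31) gave 3978 calls between KEP lung and KEP blood with the date block (2055 higher, 1923 lower) and 3672 without it (1892 higher, 1780 lower), against 6416; the same fits gave 3956 and 3644 calls in WT, and 34 and 38 of the named genes lost their call. The cause was not tested. Testing against a 2-fold change instead of no change (glmTreat) left 950 calls, 640 higher and 310 lower. Without the replicate block (date pairing) 5540 genes were called in KEP, 5529 of them shared with the fit that has it, and 5 named genes lost their call (Foxp3, Il2ra, Mcm3, Cdk1 and Aurka). Leaving out 1 KEP library gave 5509 to 5940 calls. The KEP minus WT difference, with 0 calls, had 1 call with all 31 libraries (with or without the block), 1 with sorted cell number as a covariate, 22 with DESeq2, 227 with no filter on low counts and 0 to 14 when 1 KEP library was left out (14 without lung replicate 2); the cause was not tested. The other scalings, filters and designs gave 5408 to 6630 calls. Il17a, with 160 counts in lung and 0 in blood, was not called by DESeq2 (adjusted p = 0.274) and was called by edgeR; the cause was not tested.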

Other observations

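Gene families, chosen after their values were seen, also divided between the tissues, against 25.1% higher and 25.0% lower over all genes. Of 323 zinc finger genes tested (symbols Zfp, Zkscan or Zscan), 192 (59.4%) were called lower in KEP lung than in KEP blood and 28 (8.67%) higher, with a median log2 fold change of -0.53, and in WT 169 were lower and 31 higher. Long intergenic noncoding RNAs were lower in 102 of 249 cases (41.0%) and higher in 25, and antisense genes lower in 53 of 162 (32.7%) and higher in 12. The values of antisense genes are uncertain, since the strand setting of the counting is not given and reads of overlapping genes may enter them. Of 9 Gimap genes, which encode GTPases of lymphocyte survival, 8 were lower and 1 higher (median -0.42).

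Genes of the ribosome moved in opposite directions by compartment. Of 77 cytosolic ribosomal protein genes 38 (49.4%) were higher in lung and 2 lower (median 0.22), values that are uncertain because their many pseudogenes share reads. Of 77 mitochondrial ribosomal protein genes 35 (45.5%) were lower and 1 higher (median -0.27). The snoRNA host gene Snhg1 was at 70.6, 70.5 and 92.4 CPM in lung and 21.1, 21.4 and 20.4 CPM in blood (log2 fold change 1.89), and Gas5 at 164, 155 and 175 CPM in lung and 113, 109 and 124 CPM in blood (0.51). Malat1, a nuclear RNA like Neat1, was at 514, 946 and 604 CPM in lung and 1723, 1114 and 707 CPM in blood and was not called (-0.73, edgeR adjusted p = 0.164).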
